A study of Mus musculus with 12 samples.

Results

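The genes of glycolysis and of the hypoxia response were followed in S1 tumorspheres with a knockout of *Nf2*, *Rasa1* or both. The group was set by gene symbol, as a written list of 37 genes, and all 37 were found among the 18926 genes of the deposited tables. They comprise 2 glucose transporters, 11 genes for the steps from glucose to triose phosphate, 6 genes for the steps from glyceraldehyde phosphate to pyruvate, 6 genes for the fate of pyruvate and lactate, 3 genes of oxygen sensing, and 9 genes known as targets of hypoxia. All 37 passed the filter on low counts that left 18053 genes for testing.

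S1 is a cell line from a mouse gastric cancer of the ChetPS model (1 floxed *Cdh1* allele of the pair, and both alleles of *Trp53* and of *Smad4* floxed), so all groups share the genetic changes of that tumor. *Nf2* encodes Merlin, an upstream activator of the Hippo pathway, and *Rasa1* encodes a GTPase-activating protein that turns Ras off. Each knockout (KO) was made with Cas9, integrated by a PiggyBac transposon, and a lentiviral sgRNA, and control cells carried a non-targeting sgRNA or the vector backbone alone. The cells were grown as spheres on low-attachment plates, although the labels call them monolayer cells, and ribosomal RNA was removed before total RNA was sequenced. There were 3 libraries in each of 4 groups, with between 43818139 and 96674463 counts per library. The study describes the dots of its plot of these RNA profiles as technical replicates. Every SE, SD and p-value given here therefore reflects the spread between such libraries and not that between separate cultures. In the main fit each gene had 1 estimate of spread shared by the 4 groups, although the control libraries spread more, as given below.

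Labelled *Rasa1*-KO and labelled double-KO libraries went against their labels. In CPM, which are counts scaled to a common library size, *Nf2* was at 58.1, 61.0 and 55.4 in control and at 14.3, 13.2 and 13.2 in *Nf2*-KO. It was at 11.59, 11.95 and 12.08 CPM in the labelled *Rasa1*-KO group, and at 62.6, 57.6 and 56.4 in the labelled double-KO group. *Rasa1* was at 60.5, 74.9 and 78.5 CPM in control and between 97.2 and 101.1 in *Nf2*-KO, but at 34.5, 30.4 and 30.8 in the labelled *Rasa1*-KO group and 17.7, 20.6 and 23.3 in the labelled double-KO group. *Nf2* was therefore low in all libraries labelled *Rasa1*-KO and at the control level in all 3 libraries labelled double-KO, and the names of the deposited tables also give these labels the other way round. The groups are called here by their labels, and every direction that involves them was also computed with both labels exchanged.

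Glycolysis splits glucose into pyruvate and yields ATP without oxygen. When oxygen is scarce, prolyl hydroxylases of the EGLN family no longer mark the α subunits of hypoxia-inducible factor (HIF) for degradation. HIF then joins its partner ARNT and binds short DNA motifs, and many genes of glucose uptake, glycolysis, angiogenesis and mitophagy are textbook targets. Tumor spheres are known to have less oxygen in their core than at their rim, but oxygen was not measured here.

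The promoters of the hypoxia-response members are shown first, because the HIF core motif can be read in them directly. The RefSeq table of GRCm38.p6, the assembly behind the mm10 genome used in the study, held promoter windows for 34 of the 37 genes, and *Slc2a3*, *Bnip3l* and *Ndrg1* had none. Each window runs from 250 bases before a start to the 50 bases after it. The core was searched as ACGTG or GCGTG on either strand, and matches that shared the same CG were counted once. Of the 34 genes, 31 (91.2%) had at least 1 match in any of their windows, against 62.9% of 12763 genes of the deposited tables with a window. Counted by window, 39 of 48 (81.2%) held a match, against 43.8% of all 32851 windows of the table. At least 2 matches were found for 25 of the 34 genes (73.5%), against 31.0% of the genes with a window. With the bases after the start left out, the shares were 91.2% and 57.4%. The palindrome CACGTG, which other factors also bind and which contains the core, was found for 6 of the 34 genes (17.6%), among them *Ldha*, *Bnip3* and *Hif1a*, against 10.7% of the genes with a window. A match is a description of the letters and not a binding site, and genes with several starts had more windows in which to match. Both cores hold a CG, and the shares were not matched for the CG content of the windows.

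The 4 oxygen-sensing or hypoxia-target genes with the most matches were *Ankrd37*, *Bnip3*, *P4ha2* and *P4ha1*, and their windows follow 5′ to 3′ on the strand of the gene, with the core in capitals. *Ankrd37*, an ankyrin-repeat gene, is on the minus strand at chr8:45999801-46000100. *Bnip3*, a mitophagy receptor, is on the minus strand at chr7:138909457-138909756. *P4ha2* and *P4ha1* encode α subunits of collagen prolyl 4-hydroxylase and lie on the plus strand at chr11:54100674-54100973 and chr10:59323046-59323345.
Ankrd37: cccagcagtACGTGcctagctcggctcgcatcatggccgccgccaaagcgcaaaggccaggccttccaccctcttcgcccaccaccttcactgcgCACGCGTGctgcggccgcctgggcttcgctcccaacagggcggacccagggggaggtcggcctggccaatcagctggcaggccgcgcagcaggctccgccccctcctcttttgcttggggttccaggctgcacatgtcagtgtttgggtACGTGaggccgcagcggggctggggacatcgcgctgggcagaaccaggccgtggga
Bnip3: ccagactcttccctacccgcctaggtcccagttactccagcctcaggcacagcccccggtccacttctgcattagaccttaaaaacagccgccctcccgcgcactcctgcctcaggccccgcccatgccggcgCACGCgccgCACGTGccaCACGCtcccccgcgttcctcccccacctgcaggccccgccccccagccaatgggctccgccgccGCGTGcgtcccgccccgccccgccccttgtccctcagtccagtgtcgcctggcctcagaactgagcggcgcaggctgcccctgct
P4ha2: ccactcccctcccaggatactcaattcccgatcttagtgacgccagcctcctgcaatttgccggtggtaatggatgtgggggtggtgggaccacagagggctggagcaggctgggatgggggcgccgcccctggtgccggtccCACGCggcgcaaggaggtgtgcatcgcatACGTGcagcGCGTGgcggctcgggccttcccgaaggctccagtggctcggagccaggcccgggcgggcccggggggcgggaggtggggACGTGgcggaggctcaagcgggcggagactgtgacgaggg
P4ha1: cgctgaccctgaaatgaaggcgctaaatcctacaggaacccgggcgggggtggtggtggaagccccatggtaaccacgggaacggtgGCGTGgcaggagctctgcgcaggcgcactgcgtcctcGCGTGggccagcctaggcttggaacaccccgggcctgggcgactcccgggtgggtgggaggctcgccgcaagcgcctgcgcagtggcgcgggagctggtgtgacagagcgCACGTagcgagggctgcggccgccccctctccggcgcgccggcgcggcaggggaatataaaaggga

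The first 3 of these promoters held 4 matches each and that of *P4ha1* held 3. In *Bnip3* the matches lay 115, 106, 97 and 34 bases before the start, the one at 106 within a CACGTG. In *Ankrd37* the match nearest to the start lay 5 bases before it, and in *P4ha2* a match lay 11 bases after it. No match was found in the windows of *Gpi1*, *Tpi1* and *Eno2*, which says only that these letters are not in those windows.

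**Figure D1:**
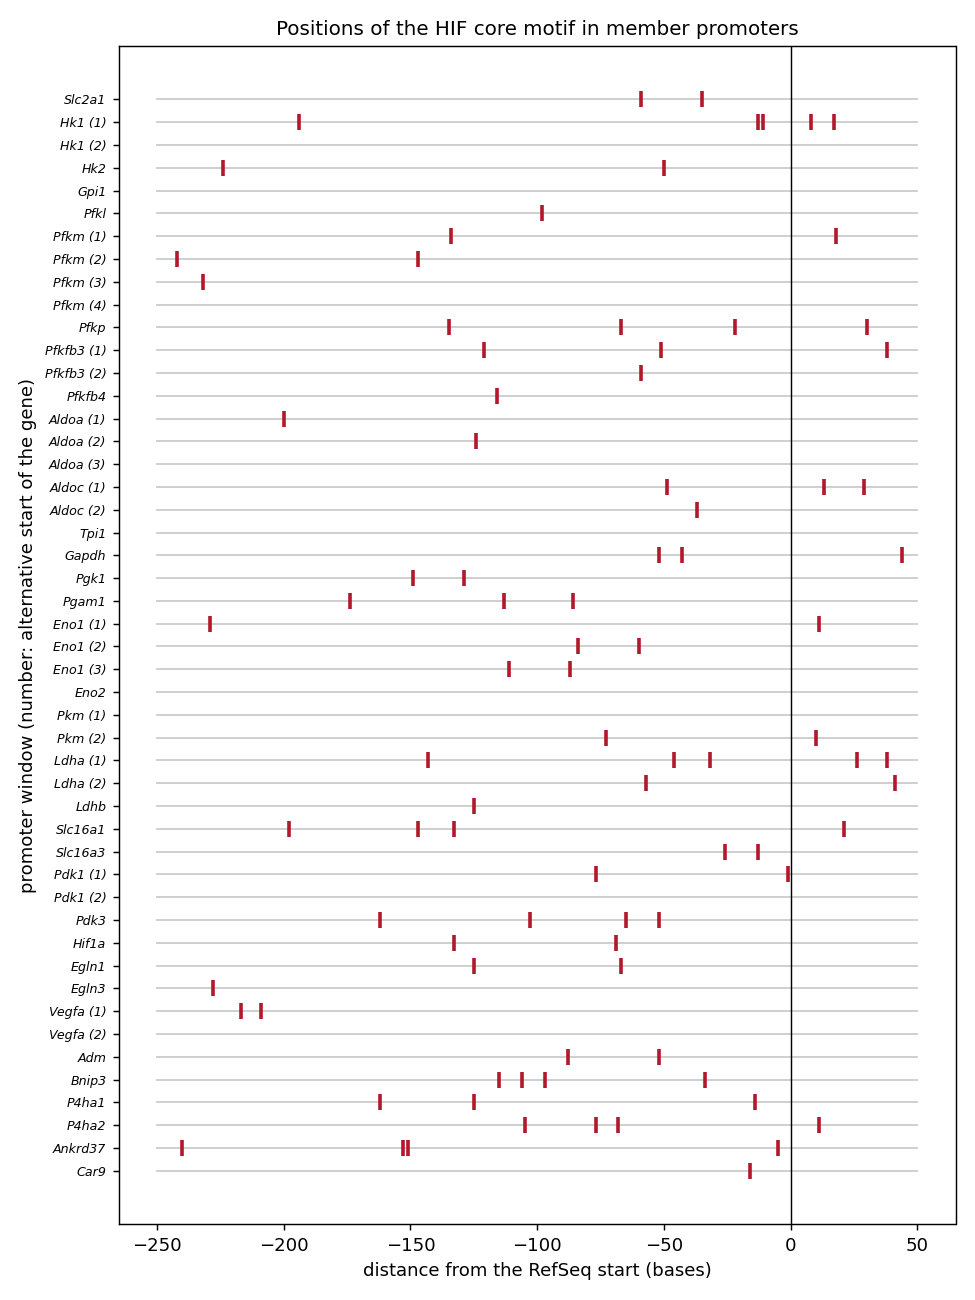
Matches of ACGTG or GCGTG on either strand (red ticks) in the promoter windows of 34 genes, by distance from the RefSeq start in bases. Of the 48 windows 39 held a match, and the windows of *Gpi1*, *Tpi1* and *Eno2* are empty.

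Most of the 37 genes were higher than control in all 3 KO groups, with the larger rises in *Nf2*-KO and in the labelled *Rasa1*-KO group. A gene was called here at an adjusted p under 0.05 (edgeR's quasi-likelihood test, Benjamini-Hochberg over 18053 genes), and fold changes are given as log2 ± standard error (SE). In *Nf2*-KO 31 of 37 rose and 2 fell, where 20.6% of all genes tested rose and 22.2% fell. In the labelled *Rasa1*-KO group 32 rose and 2 fell, where 19.7% of all genes rose and 22.2% fell. In the labelled double-KO group 23 rose and 0 fell, where 4.0% of all genes rose and 2.46% fell. The median log2 fold change of the 37 genes was 1.43, 1.38 and 0.93 in these comparisons, and that of all genes was -0.07, -0.08 and -0.04. The 3 comparisons share the same control libraries. The counts by role given below are to be read against the same shares over all genes. In bulk RNA, fewer cells of a type and less RNA per cell cannot be told apart. An F test for any difference among the 4 groups called 34 of the 37 genes, all but *Slc16a1*, *Hif1a* and *Adm*, and 46.3% of all genes.

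The count in the labelled double-KO group depended on which libraries were in the fit. With only these and the control libraries fitted, 0 of the 37 genes and 0.102% of all genes were called by edgeR, and 29 of the 37 had an unadjusted p under 0.05, while the median log2 fold change stayed at 0.92. DESeq2 on all libraries called 30 of the 37, all higher. No share over all genes is given for this count or for that of the replicate block below. Neither is to be read as particular to these genes. Without the unnumbered control library, edgeR called 35, of which 34 rose and *Pfkfb4* fell, and 30.1% of all genes were called. Control and labelled double-KO libraries with the same number in the names of their tables deviated together, but so did some with unlike numbers (correlation 0.399 for library 2 of both groups). With the number in the table names as a replicate block, 31 of the 37 were called. The 8 added calls were *Pfkl*, *Pfkm*, *Aldoc*, *Tpi1*, *Pdk3*, *P4ha1* and *Ankrd37*, which were higher, and *Pfkfb4*, which was lower (edgeR, adjusted p between 0.0014 and 0.036), so where these genes are given below as not called, that holds without the block.

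By the rule the study used, a fold change of at least 3 and an unadjusted p under 0.05, 14 of the 37 genes rose in *Nf2*-KO, where 3.76% of all genes did. The same rule gave 14 in the labelled *Rasa1*-KO group (3.16% of all genes) and 2, *Slc16a3* and *Car9*, in the labelled double-KO group (0.576% of all genes).

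**Figure D2:**
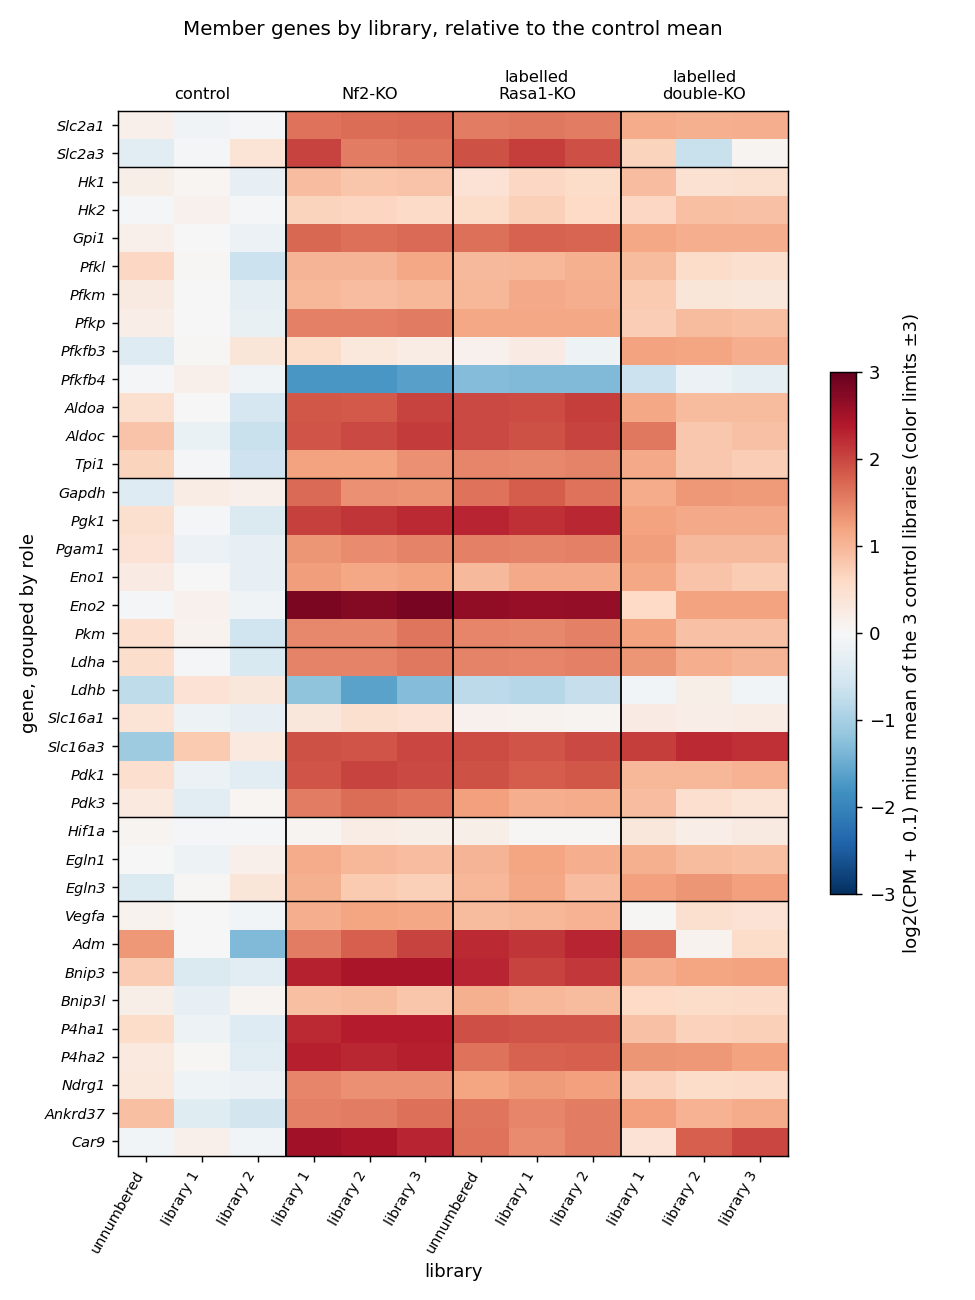
Each of the 37 genes (rows, grouped by role) in the 12 libraries (columns), as log2(CPM + 0.1) minus the mean of the 3 control libraries. Most rows are red in *Nf2*-KO and labelled *Rasa1*-KO and paler in labelled double-KO, while *Pfkfb4* and *Ldhb* are blue in the first 2 of these groups.

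Glucose enters cells through the transporters of the SLC2A family. *Slc2a1* (chr4:119108745-119137330) encodes GLUT1, the widely expressed transporter. *Slc2a1* stood at 139.8, 118.6 and 122.9 CPM in control, 392, 404 and 412 in *Nf2*-KO, 367, 382 and 367 in the labelled *Rasa1*-KO group, and 274, 266 and 269 in the labelled double-KO group. The 4 groups of *Slc2a1* did not overlap, with control lowest and *Nf2*-KO highest. Its log2 fold change against control was 1.66 ± 0.09 in *Nf2*-KO, 1.55 ± 0.09 in the labelled *Rasa1*-KO group and 1.09 ± 0.09 in the labelled double-KO group (adjusted p = 1.5e-07, 3.9e-07 and 0.00013). *Slc2a3*, which encodes GLUT3, was scarce, at 0.159, 0.218 and 0.337 CPM in control and 1.25, 0.855 and 0.905 in *Nf2*-KO. *Slc2a3* was at 1.14, 1.30 and 1.17 CPM in the labelled *Rasa1*-KO group, but at 0.427, 0.107 and 0.251 in the labelled double-KO group, which overlapped control. It rose by a log2 of 2.1 ± 0.44 and 2.36 ± 0.44 in the first 2 comparisons, and differed by 0.18 ± 0.45 in the last (adjusted p = 0.86).

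Of the 11 genes between glucose and triose phosphate, 9 rose and *Pfkfb4* fell in *Nf2*-KO and in the labelled *Rasa1*-KO group, and 6 rose in the labelled double-KO group. Hexokinases trap glucose as glucose 6-phosphate. *Hk2* (chr6:82725025-82774454), the inducible hexokinase of many tumors, was at 146, 165 and 144 CPM in control and 240.0, 238 and 226 in *Nf2*-KO. It was at 222, 248 and 229 CPM in the labelled *Rasa1*-KO group, and at 234, 283 and 277 in the labelled double-KO group. All 9 KO libraries lay above the control libraries for *Hk2*, and its rise was modest, with a log2 of 0.63 ± 0.10, 0.62 ± 0.10 and 0.80 ± 0.10. *Hk1*, the constitutive form, rose by 0.87 ± 0.15, 0.53 ± 0.15 and 0.63 ± 0.15.

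*Gpi1*, the phosphoglucose isomerase, rose from a mean of 442 ± 50 CPM (SD, n = 3) in control to 1417 ± 43 in *Nf2*-KO and 1456 ± 59 in the labelled *Rasa1*-KO group. It was at 951 ± 28 CPM in the labelled double-KO group, and no KO library overlapped control. The 3 phosphofructokinase genes, for the committed step of glycolysis, did not move equally. *Pfkp*, the platelet type, rose by a log2 of 1.51 ± 0.11, 1.15 ± 0.11 and 0.86 ± 0.11. *Pfkl* and *Pfkm*, the liver and muscle types, rose by between 0.92 and 1.05 in the first 2 comparisons, and had 0.59 ± 0.24 and 0.50 ± 0.15 in the labelled double-KO group, where neither was called (adjusted p = 0.19 and 0.077).

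The 2 regulators that make and degrade fructose 2,6-bisphosphate, the activator of phosphofructokinase, departed from the rest. *Pfkfb4* was at 56.9, 66.0 and 55.1 CPM in control and 17.7, 17.7 and 18.9 in *Nf2*-KO. It was at 23.8, 23.4 and 23.7 CPM in the labelled *Rasa1*-KO group and at 37.6, 52.0 and 49.1 in the labelled double-KO group. *Pfkfb4* was thus lower in every KO library than in any control library, with a log2 fold change of -1.71 ± 0.13, -1.33 ± 0.13 and -0.36 ± 0.12, the last not called (adjusted p = 0.11). *Pfkfb3* had 10.1, 13.7 and 17.1 CPM in control and between 28.5 and 30.9 in the labelled double-KO group. It rose there by 1.14 ± 0.18 (adjusted p = 0.0033) and was not called in *Nf2*-KO or in the labelled *Rasa1*-KO group (0.34 ± 0.18 and 0.06 ± 0.18).

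Aldolase and triose phosphate isomerase close the upper part of the pathway. *Aldoa* (chr7:126795234-126800994), the aldolase of muscle and most tumors, was at 1384, 1000 and 701 CPM in control. It was at 3598, 3525 and 4042 CPM in *Nf2*-KO, 3890, 3869 and 4151 in the labelled *Rasa1*-KO group, and 2198, 1910 and 1905 in the labelled double-KO group. The 3 control libraries of *Aldoa* spread widely, but none reached a KO library, and the log2 fold change was 1.86 ± 0.21, 1.95 ± 0.21 and 0.96 ± 0.20. *Aldoc* rose by 1.85 ± 0.33 and 1.84 ± 0.33 in the first 2 comparisons and *Tpi1* by 1.17 ± 0.26 and 1.37 ± 0.26. Neither was called in the labelled double-KO group, where they had 0.99 ± 0.32 and 0.81 ± 0.25 (adjusted p = 0.097 and 0.085).

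All 6 genes from glyceraldehyde phosphate to pyruvate rose in each of the 3 comparisons. *Pgk1* (chrX:106187100-106203699) encodes phosphoglycerate kinase, the first ATP-yielding step. *Pgk1* was at 1103, 753 and 584 CPM in control, 3254, 3473 and 3731 in *Nf2*-KO, 3810, 3614 and 3775 in the labelled *Rasa1*-KO group, and 1815, 1720 and 1735 in the labelled double-KO group. No group of *Pgk1* overlapped control, and the labelled double-KO group stood between control and the others. Its log2 fold change was 2.099 ± 0.20, 2.20 ± 0.20 and 1.11 ± 0.19 (adjusted p = 7.1e-06, 8e-06 and 0.0056).

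*Eno2* (chr6:124760053-124769673), the neuronal enolase, had the largest rise of the 37 genes in *Nf2*-KO and in the labelled *Rasa1*-KO group. It was at 48.0, 53.9 and 45.9 CPM in control, 349, 335 and 352 in *Nf2*-KO, and 310.2, 300.5 and 306 in the labelled *Rasa1*-KO group. In the labelled double-KO group *Eno2* was at 74.0, 114 and 113 CPM, above control but far below the other KO libraries. The log2 fold change was 2.81 ± 0.16, 2.63 ± 0.15 and 1.03 ± 0.15. *Eno1*, the common enolase, was more abundant (370 ± 45 FPKM in control, a length-scaled unit that compares levels between genes, against 17.3 ± 1.7 for *Eno2*) and rose less, by 1.195 ± 0.15, 1.07 ± 0.15 and 0.92 ± 0.15.

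*Gapdh*, the glyceraldehyde phosphate dehydrogenase often used as a loading reference, was at 233, 353 and 340.0 CPM in control and between 769 and 1064 in *Nf2*-KO and in the labelled *Rasa1*-KO group. It was at 661, 743 and 738 CPM in the labelled double-KO group, so all KO libraries lay above control, with a log2 fold change of 1.46 ± 0.16, 1.67 ± 0.17 and 1.21 ± 0.16. *Pkm*, the pyruvate kinase, had the most reads per length of the 37 genes in control (768 ± 236 FPKM) and rose by 1.43 ± 0.23, 1.40 ± 0.23 and 0.93 ± 0.23. *Pgam1*, the phosphoglycerate mutase, rose by 1.39 ± 0.17, 1.48 ± 0.17 and 1.04 ± 0.17.

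Several of these genes have near-identical copies that share reads with them, so their levels are uncertain. *Pgam1-ps2* held 37.3% as many counts as *Pgam1*, and its mean without TMM scaling was 239 CPM in control, 547 in *Nf2*-KO, 554 in the labelled *Rasa1*-KO group and 412 in the labelled double-KO group. *Pgk1-rs7* held 8.66% as many counts as *Pgk1*, and *Eno1b* 4.77% as many as *Eno1*. The copies thus had more counts in the same groups as the genes, and with their counts added to those of *Pgk1*, *Pgam1*, *Eno1*, *Ldha* and *Bnip3l* the number of genes called was unchanged in every comparison (33, 34 and 23 of 37 against control). Copies of *Gapdh* were not matched here.

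Of the 6 genes for pyruvate and lactate, 4 rose and *Ldhb* fell in *Nf2*-KO and in the labelled *Rasa1*-KO group, and 3 rose in the labelled double-KO group. *Ldha* (chr7:46842274-46855627) encodes the lactate dehydrogenase subunit that favors lactate. *Ldha* was at 1097, 734 and 551 CPM in control, 2143, 2143 and 2275 in *Nf2*-KO, 2125, 2098 and 2188 in the labelled *Rasa1*-KO group, and 1912, 1613 and 1555 in the labelled double-KO group. The highest control library of *Ldha* lay below every KO library, and its log2 fold change was 1.46 ± 0.21, 1.43 ± 0.21 and 1.09 ± 0.20. *Ldhb*, the subunit that favors pyruvate, was far scarcer, with 4.64, 10.9 and 10.1 CPM in control, 3.43, 2.56 and 3.18 in *Nf2*-KO, and between 4.40 and 4.90 in the labelled *Rasa1*-KO group. It fell by 1.48 ± 0.27 and by 0.88 ± 0.26 on the log2 scale in these comparisons, the second with an overlap between the groups, because the unnumbered control library was as low as the KO libraries. In the labelled double-KO group it had a log2 fold change of -0.08 ± 0.26 (adjusted p = 0.9).

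*Slc16a3*, which encodes MCT4, the lactate exporter of glycolytic cells, had the largest rise of the 37 genes in the labelled double-KO group. It was at 8.30, 30.2 and 21.3 CPM in control, 65.6, 64.8 and 70.6 in *Nf2*-KO, 68.4, 65.3 and 68.9 in the labelled *Rasa1*-KO group, and 74.4, 82.9 and 80.4 in the labelled double-KO group. All KO libraries of *Slc16a3* were at least at 64.8 CPM, and none of the 3 KO groups overlapped control, with a log2 fold change of 1.75 ± 0.33, 1.76 ± 0.33 and 1.99 ± 0.33. *Slc16a1*, which encodes MCT1, a transporter that works in either direction, was not called (0.39 ± 0.15, 0.08 ± 0.15 and 0.19 ± 0.15).

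The pyruvate dehydrogenase kinases inhibit pyruvate dehydrogenase in mitochondria and so limit the conversion of pyruvate to acetyl-CoA. *Pdk1* (chr2:71873215-71903858) was at 226, 140.9 and 127 CPM in control, 588, 645 and 624 in *Nf2*-KO, 596, 565 and 575 in the labelled *Rasa1*-KO group, and 317, 315 and 328 in the labelled double-KO group. The labelled double-KO group was again between control and the others, without overlap. The log2 fold change of *Pdk1* was 1.91 ± 0.18, 1.82 ± 0.18 and 0.96 ± 0.18. *Pdk3* rose by 1.60 ± 0.17 and 1.120 ± 0.168 in the first 2 comparisons and was not called in the last (0.61 ± 0.17, adjusted p = 0.054).

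**Figure D3:**
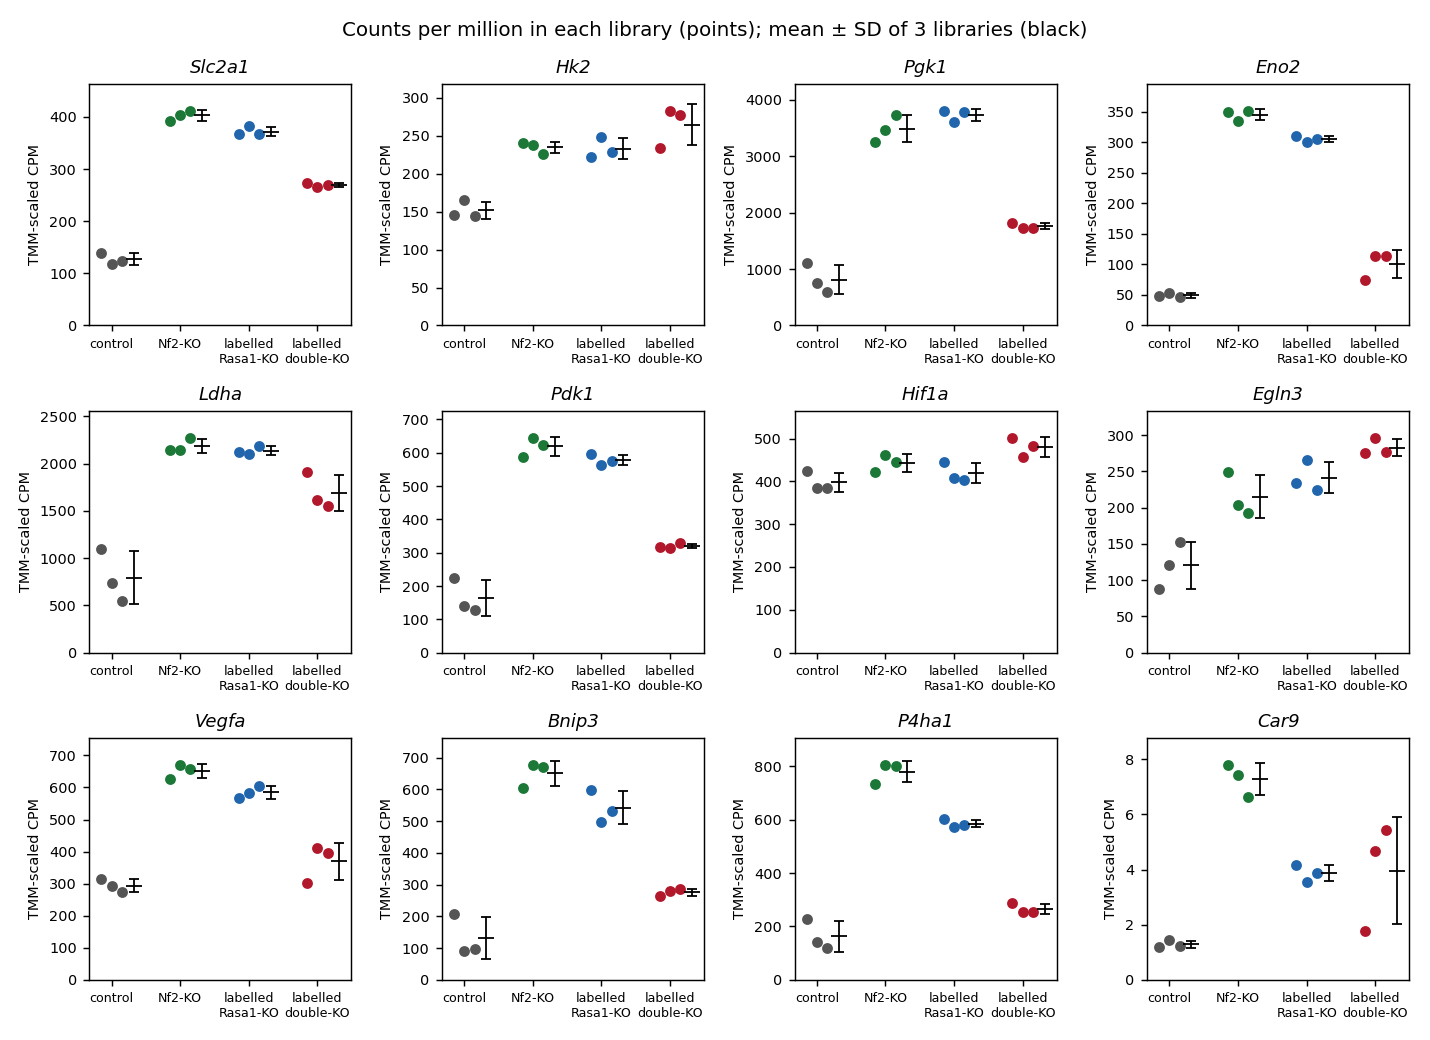
TMM-scaled CPM of 12 genes in each library (points, 3 per group; the vertical axis starts at 0), with the mean ± SD of a group in black. *Slc2a1*, *Pgk1*, *Pdk1* and *P4ha1* form steps from control over labelled double-KO to the other groups, whereas *Hif1a* lies between 383.9 and 502 CPM in all libraries and *Egln3* is highest in labelled double-KO.

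In the oxygen-sensing genes the 2 prolyl hydroxylases rose in all 3 comparisons and *Hif1a* was called in none. *Hif1a* (chr12:73901324-73947554), the regulated HIF subunit, whose protein level is set mainly by degradation, was at 423, 385 and 384 CPM in control and 422, 462 and 446 in *Nf2*-KO. It was at 445, 408 and 404 CPM in the labelled *Rasa1*-KO group and 502, 456 and 482 in the labelled double-KO group. The log2 fold change of *Hif1a* was 0.16 ± 0.09, 0.08 ± 0.09 and 0.27 ± 0.09 (adjusted p = 0.19, 0.52 and 0.11). Without the unnumbered control library, the last value was 0.32 and was called (adjusted p = 0.015). The protein was not measured.

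*Egln3* (chr12:54178981-54203874), a prolyl hydroxylase that is itself a hypoxia target, was at 88.1, 122 and 153 CPM in control and 249, 204 and 193 in *Nf2*-KO. It was at 235, 265 and 225 CPM in the labelled *Rasa1*-KO group and 275, 297 and 277 in the labelled double-KO group, with no KO library as low as control. The log2 fold change was 0.83 ± 0.17, 1.00 ± 0.18 and 1.23 ± 0.18. *Egln1*, the main oxygen sensor, rose by 1.01 ± 0.11, 1.10 ± 0.11 and 0.96 ± 0.11.

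Of the 9 hypoxia targets, 8 rose in *Nf2*-KO, 9 in the labelled *Rasa1*-KO group and 5 in the labelled double-KO group. Over all genes, 20.6%, 19.7% and 4.0% rose in these comparisons. *Bnip3*, with the promoter shown above, was at 208, 91.0 and 98.3 CPM in control, 605, 677 and 670.3 in *Nf2*-KO, 599, 498 and 531 in the labelled *Rasa1*-KO group, and 263, 279 and 284 in the labelled double-KO group. The unnumbered control library of *Bnip3* had over 2 times the counts of the other control libraries but was still below every KO library. The log2 fold change of *Bnip3* was 2.30 ± 0.26, 2.04 ± 0.26 and 1.06 ± 0.25 (adjusted p = 3.3e-05, 1e-04 and 0.029). The last call was lost when any of 7 libraries was left out in turn, 5 of them outside control, with adjusted p-values between 0.05 and 0.11, and without the unnumbered control library the change was 1.54. *Bnip3l*, its paralog NIX, rose by 0.89 ± 0.11, 0.99 ± 0.11 and 0.56 ± 0.11.

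The collagen hydroxylase subunits rose to different extents. *P4ha1* was at 229, 140.3 and 119 CPM in control, 735, 806 and 800.0 in *Nf2*-KO, 601, 574 and 582 in the labelled *Rasa1*-KO group, and 287, 253 and 255 in the labelled double-KO group. The groups of *P4ha1* did not overlap, and its log2 fold change was 2.26 ± 0.20, 1.85 ± 0.20 and 0.70 ± 0.19, the last just outside the threshold (adjusted p = 0.054). *P4ha2* was at 113, 93.3 and 73.3 CPM in control, 462, 441 and 463 in *Nf2*-KO, 286, 312 and 317 in the labelled *Rasa1*-KO group, and 228, 225 and 213 in the labelled double-KO group. Its 4 groups were apart as well, with a log2 fold change of 2.29 ± 0.14, 1.71 ± 0.14 and 1.25 ± 0.14.

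*Car9* (chr4:43507026-43513729) encodes carbonic anhydrase IX, a surface enzyme widely used to mark hypoxic tumor cells, and was scarce in these spheres. It was at 1.201, 1.443 and 1.210 CPM in control, 7.80, 7.43 and 6.63 in *Nf2*-KO, and 4.16, 3.57 and 3.89 in the labelled *Rasa1*-KO group. In the labelled double-KO group *Car9* was at 1.77, 4.67 and 5.43 CPM, with the first library near control. The log2 fold change was 2.501 ± 0.33, 1.59 ± 0.33 and 1.62 ± 0.33 (adjusted p = 0.00011, 0.0025 and 0.013), and the last call was lost without labelled double-KO library 2 or 3 (adjusted p = 0.059 and 0.058).

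*Vegfa* (chr17:46016993-46032377), the angiogenic growth factor, was at 314, 292 and 275 CPM in control, 627, 671 and 658 in *Nf2*-KO, and 567, 582 and 605 in the labelled *Rasa1*-KO group. In the labelled double-KO group it was at 302, 410.0 and 396 CPM, overlapping control. It rose by a log2 of 1.15 ± 0.12 and 0.99 ± 0.12 in the first 2 comparisons and was not called in the last (0.33 ± 0.12, adjusted p = 0.14). *Adm*, the vasodilator adrenomedullin, had only 1.51, 0.558 and 0.159 CPM in control and 2.98, 2.77 and 3.05 in the labelled *Rasa1*-KO group, where it rose by 1.94 ± 0.60. In *Nf2*-KO *Adm* had 1.78, 2.14 and 2.54 CPM, all above control, without a call (1.496 ± 0.60, adjusted p = 0.062). *Ndrg1* rose by 1.39 ± 0.14, 1.21 ± 0.13 and 0.60 ± 0.13. *Ankrd37* rose by 1.41 ± 0.30 and 1.38 ± 0.30 and had 0.98 ± 0.30 in the labelled double-KO group (adjusted p = 0.077).

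**Figure D4:**
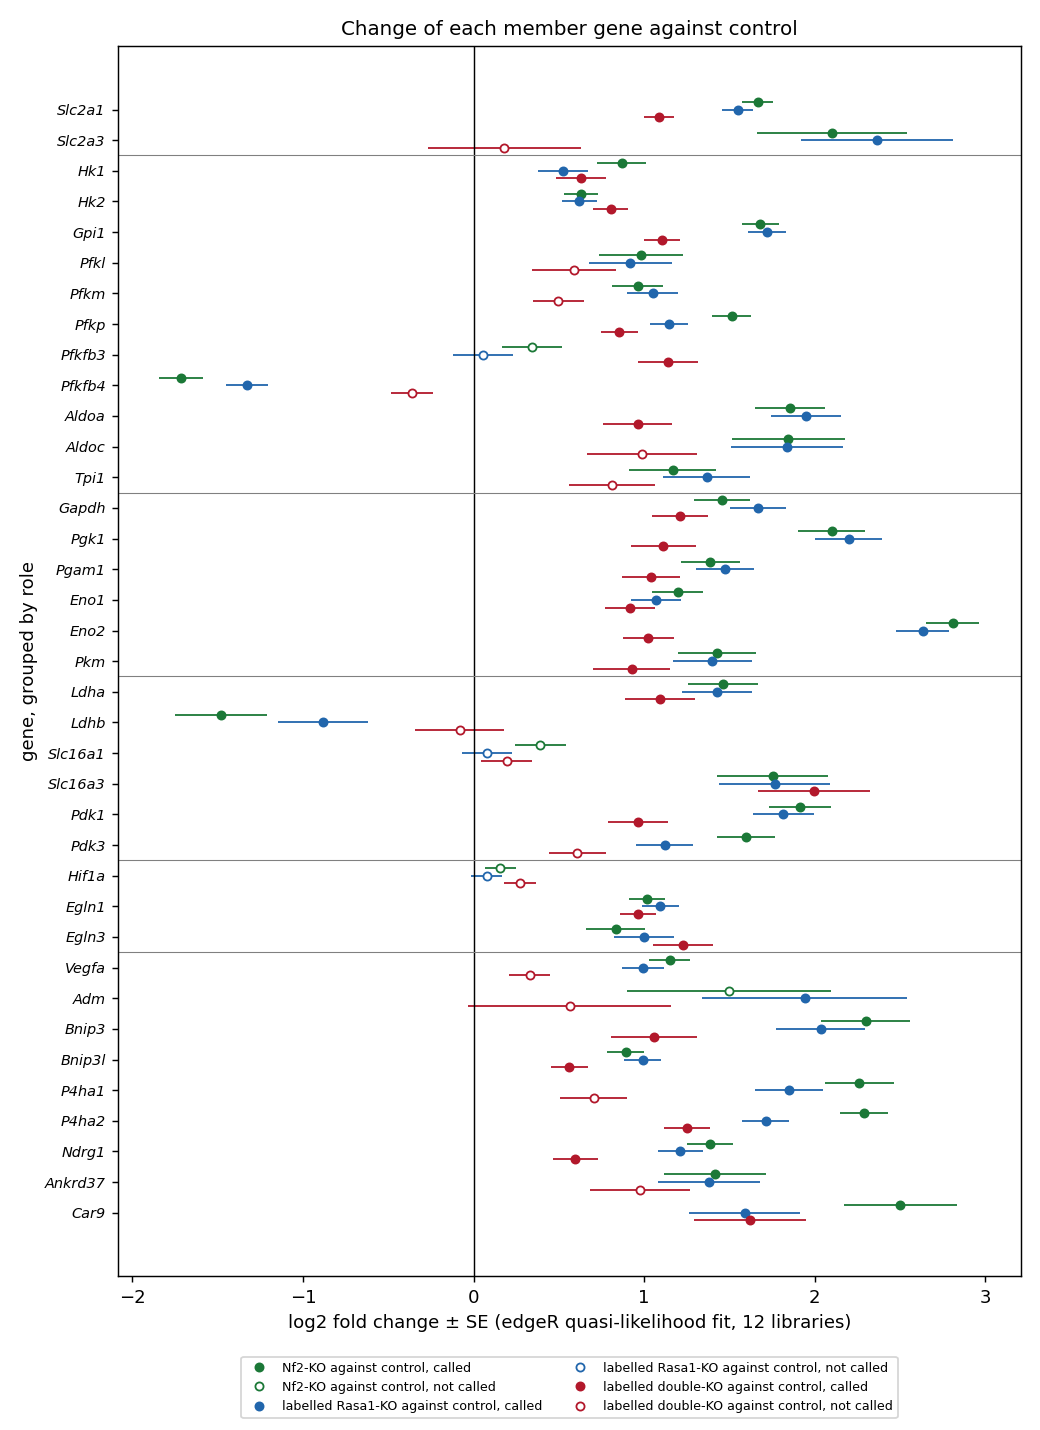
Log2 fold change ± SE of each gene against control in *Nf2*-KO (green), the labelled *Rasa1*-KO group (blue) and the labelled double-KO group (red), with filled points for an adjusted p under 0.05. Most points lie right of 0, *Pfkfb4* and *Ldhb* lie left of it, and *Pfkfb3* is a filled point in red only.

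The groups were also compared with each other. In the labelled *Rasa1*-KO group against *Nf2*-KO, 0 of the 37 genes rose and 1 fell, where 1.92% of all genes rose and 1.74% fell. The gene was *P4ha2*, with a log2 fold change of -0.58 ± 0.13 (adjusted p = 0.037), and 7 of the 37 had an unadjusted p under 0.05. DESeq2 called 3 of the 37, all lower. With only these groups fitted, 13 were called, of which 11 were lower in the labelled *Rasa1*-KO group. The shares over all genes above are those of the main fit. None is given for these 2 settings, so their counts are not to be read as particular to the 37 genes. *Car9* had -0.91 ± 0.31 and *Pfkp* -0.37 ± 0.11, neither called (adjusted p = 0.16 and 0.1). The median log2 fold change of the 37 genes was -0.03.

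In the labelled double-KO group against the labelled *Rasa1*-KO group, 15 of the 37 genes were lower and 3 higher, where 14.0% of all genes were lower and 16.3% higher. Among the called genes, the largest falls were those of *Slc2a3* (-2.18 ± 0.43), *Eno2* (-1.61 ± 0.15), *P4ha1* (-1.15 ± 0.20) and *Pgk1* (-1.09 ± 0.19). *Pfkfb3*, *Pfkfb4* and *Ldhb* were the 3 that were higher (1.08 ± 0.18, 0.97 ± 0.12 and 0.80 ± 0.26). With the labels exchanged these differences keep their size and turn their sign. Against *Nf2*-KO, 17 were lower and the same 3 higher in the labelled double-KO group, where 15.3% of all genes were lower and 16.9% higher. *Eno2* had -1.78 ± 0.15 and *P4ha1* -1.56 ± 0.20 there. Among the genes with no call in either comparison were *Hk2*, *Ldha*, *Eno1*, *Egln1* and *Egln3*, with log2 differences between -0.37 and 0.40.

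A departure from additivity was computed as the log2 change in the labelled double-KO group minus the sum of the changes in *Nf2*-KO and in the labelled *Rasa1*-KO group. As labelled, it was negative and called for 31 of the 37 genes and positive for 3, where 24.9% of all genes were called lower and 27.4% higher. The median over the 37 genes was -1.82, and 0.09 over all genes. *Eno2* had -4.42 ± 0.22 and *Slc2a1* -2.13 ± 0.13, against -1.20 ± 0.21 and -1.201 ± 0.125 with the labels exchanged. The exchanged labels are those that match the levels of *Nf2* and *Rasa1* given above. With the labels exchanged, 22 were called lower and *Pfkfb4* higher, with a median of -0.996, and 6.41% of all genes were called. *Car9* had -2.53 ± 0.45 and *P4ha2* -1.83 ± 0.19 then, while *Vegfa* (-0.49 ± 0.17, adjusted p = 0.12) and *Slc2a3* (0.08 ± 0.61) were not called.

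The 3 control libraries differed from each other in these genes. The unnumbered control library was the highest of the 3 in 26 of the 37 genes, where it was so for 45.5% of all genes, and control library 2 was the lowest in 25, where it was so for 39.5%. The median range among the control libraries was 0.66 on the log2 scale for the 37 genes and 0.75 for all genes. In the other groups the median ranges were between 0.116 and 0.207 for the 37 genes and between 0.213 and 0.349 for all genes. The main fit shared 1 estimate of spread per gene over the 4 groups, so an SE against control does not measure the control spread alone. The part of this in the counts called was not tested. An order was seen outside control too, since labelled double-KO library 1 was the highest of its group in 25 of the 37 genes, where it was so for 42.1% of all genes. The unnumbered library minus the mean of the other two control libraries had a median of 0.37 over the 37 genes and 0.03 over all genes. The same order of the 3 libraries held for depth, with 95340850 counts in the unnumbered library, 69091487 in library 1 and 43818139 in library 2, and the part of depth in this order was not tested.

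The widest ranges in control were those of *Adm* (3.06 on the log2 scale, at low counts), *Slc16a3* (1.86), *Aldoc* (1.52), *Ankrd37* (1.47), *Tpi1* (1.29) and *Pfkl* (1.25). *Aldoc* was at 168, 81.3 and 58.6 CPM in the unnumbered library, library 1 and library 2, and *Tpi1* at 1350, 809 and 551. *Ankrd37* was at 48.5, 20.1 and 17.5 CPM and *Pfkl* at 561, 374 and 236. In these 4 genes and in *Adm* the unnumbered library was the highest and library 2 the lowest. *Slc16a3* went the other way, lowest in the unnumbered library, and so did *Ldhb*, *Gapdh*, *Egln3*, *Pfkfb3* and *Slc2a3*. *Hif1a*, *Vegfa* and *Hk2* varied least, with ranges of 0.14, 0.19 and 0.19. Among the hypoxia genes, *Bnip3* and *Ankrd37* were higher by 1.13 and 1.37 in the unnumbered library than in the mean of the others. *Vegfa* differed by 0.15 there, which turned to -0.015 without TMM scaling, and *Egln3* by -0.63.

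**Figure D5:**
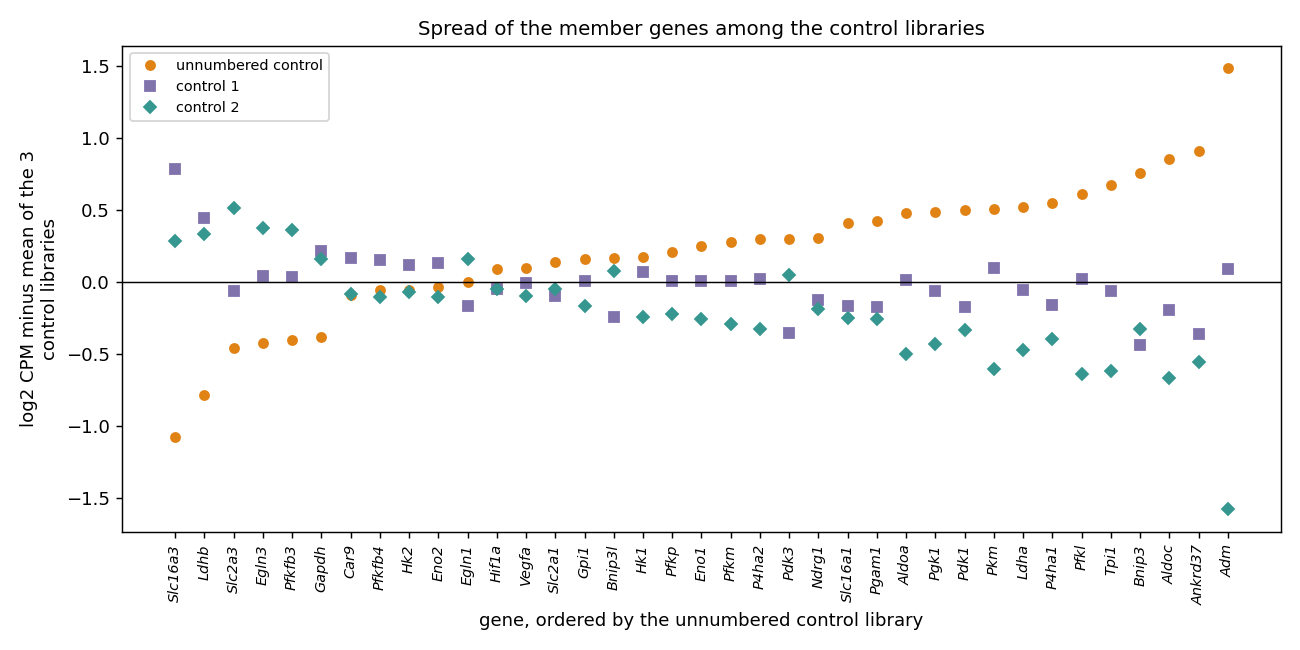
The 37 genes in the unnumbered control library (circles), control library 1 (squares) and control library 2 (diamonds), as log2 CPM minus the mean of the 3. The genes are ordered by the unnumbered library, which is highest for *Adm* at the right end and lowest of the 3 at the left end for *Slc16a3*, *Ldhb*, *Slc2a3*, *Egln3*, *Pfkfb3* and *Gapdh*.

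Other genes of the same pathways were read from lists. Of 56 further genes known as HIF targets, 35 rose and 6 fell in *Nf2*-KO, with a median log2 fold change of 1.07. In the labelled *Rasa1*-KO group 34 rose and 5 fell (median 0.85), and in the labelled double-KO group 24 rose and 1 fell (median 0.56). Over all genes, 20.6% rose and 22.2% fell in *Nf2*-KO, and 19.7% and 22.2% in the labelled *Rasa1*-KO group. The shares were 4.0% and 2.46% in the labelled double-KO group. The genes named next were first picked from those with the largest called changes. *Pgf*, placental growth factor, had a mean of 2.64 CPM in control, 38.1 in *Nf2*-KO, 39.2 in the labelled *Rasa1*-KO group and 13.4 in the labelled double-KO group. *Ero1l*, an oxidase of protein folding in the endoplasmic reticulum, went from 326 CPM in control to 2283, 2100 and 1061. *Plod2*, the collagen lysyl hydroxylase, rose in all 3 by 2.51 ± 0.14, 1.89 ± 0.13 and 1.17 ± 0.13. *Lox*, the collagen cross-linking oxidase, rose by 3.13 ± 0.62 and 2.62 ± 0.61 in the first 2 comparisons and had -0.01 ± 0.58 in the labelled double-KO group. It was at 2.75, 29.57 and 33.65 CPM in control, the unnumbered library lowest, and between 21.53 and 22.04 in the labelled double-KO group. *Nos2* of the same list went the other way. Its mean was 83.46 CPM in control, 23.53 in *Nf2*-KO, 20.45 in the labelled *Rasa1*-KO group and 72.45 in the labelled double-KO group.

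The counts for 20 HIF subunits and regulators are to be read against the shares over all genes (20.6% higher and 22.2% lower in *Nf2*-KO), with 4 genes higher and 7 lower in *Nf2*-KO, 3 and 6 in the labelled *Rasa1*-KO group, and 1 and 1 in the labelled double-KO group. *Epas1*, which encodes HIF2α, fell by 2.65 ± 0.53 and by 2.33 ± 0.52 on the log2 scale in the first 2 comparisons and had -0.39 ± 0.49 in the last (adjusted p = 0.7). It was at 12.7, 57.5 and 79.4 CPM in control, so the unnumbered library stood apart, next to the highest library of the labelled *Rasa1*-KO group at 12.6 CPM. The coactivator genes *Ep300* and *Crebbp* and *Hif1an*, the asparaginyl hydroxylase of HIF, were lower in the first 2 comparisons, by between 0.70 and 1.35, but their groups overlapped. *Ep300* was at 53.5, 196 and 273 CPM in control, and the unnumbered control library was likewise at 33.4 CPM for *Crebbp* and 38.1 for *Hif1an*, against at least 73.4 in the other control libraries, so these falls rest on 2 control libraries. The ubiquitin ligase gene *Siah2* rose in all 3 (1.41 ± 0.11, 1.18 ± 0.11 and 0.80 ± 0.11).

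For 39 paralogs and neighbors of the glycolytic genes the counts are also to be read against those shares (19.7% higher and 22.2% lower in the labelled *Rasa1*-KO group, 4.0% and 2.46% in the labelled double-KO group), with 10 higher and 13 lower in *Nf2*-KO, 11 and 10 in the labelled *Rasa1*-KO group, and 6 and 4 in the labelled double-KO group. *Eno3*, the muscle enolase, rose by 2.48 ± 0.11, 1.79 ± 0.11 and 0.62 ± 0.11. *Gpd1*, which leads triose phosphate toward glycerol, fell by 2.46 ± 0.13, by 1.52 ± 0.12 and by 0.67 ± 0.12. *Slc16a7*, which encodes the monocarboxylate transporter MCT2, fell by 3.40 ± 0.31, by 3.45 ± 0.31 and by 1.29 ± 0.28, from a mean of only 6.45 CPM in control. Of 10 genes of the pentose phosphate pathway 2 rose and 2 fell in *Nf2*-KO, 3 and 2 in the labelled *Rasa1*-KO group, and 0 and 1 in the labelled double-KO group. These counts and those of the next list are to be read against the same shares, with 20.6% of all genes higher and 22.2% lower in *Nf2*-KO. Of 8 genes of gluconeogenesis and glycogen, only *Gbe1* and *Gys1*, which build glycogen, were called, and both rose in all 3 comparisons, *Gys1* by 1.60 ± 0.10, 1.196 ± 0.10 and 1.15 ± 0.10.

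Markers of other cell types were read in the same libraries. The epithelial keratins *Krt8*, *Krt18* and *Krt19* were high throughout, with *Krt8* between 839.8 and 1758 FPKM. *Cldn4* of the same list was at most 0.415 FPKM. Of 11 markers of gastric lineages 4 were found, and their summed level was between 1.35 and 6.32 FPKM. The summed level of 3 endothelial markers was at most 0.466 FPKM. Of the 2 immune markers in the tables, *Ptprc* was at most 0.0971 FPKM, while *Cd68*, a lysosomal gene of macrophages, was between 4.06 and 6.27 FPKM in control, 10.6 and 11.1 in *Nf2*-KO, 13.9 and 16.2 in the labelled *Rasa1*-KO group, and 4.92 and 11.9 in the labelled double-KO group. *Cd68* was called higher in the first 2 comparisons. Of 6 fibroblast markers in the tables, 5 rose and *Dcn* fell in *Nf2*-KO and in the labelled *Rasa1*-KO group. Their summed level was between 22.2 and 184 FPKM in control, 1160 and 1240 in *Nf2*-KO, 397 and 427 in the labelled *Rasa1*-KO group, and 22.7 and 48.6 in the labelled double-KO group. The smallest count of any gene in any library was 1, so a level above 0 says nothing about these markers. *Col3a1* alone was at 6.31, 140 and 112 FPKM in the unnumbered control library, library 1 and library 2. For all counts of markers, the shares over all genes were 20.6% higher and 22.2% lower in *Nf2*-KO. They were 19.7% and 22.2% in the labelled *Rasa1*-KO group, and 4.0% and 2.46% in the labelled double-KO group. Of the 7 epithelial markers, 1 rose and 2 fell in *Nf2*-KO, 4 rose and 2 fell in the labelled *Rasa1*-KO group, and 1 rose and 1 fell in the labelled double-KO group. *Epcam* and *Cdh1* were the 2 that fell in the first 2 comparisons, and *Krt7* was between 34.7 and 50.8 FPKM in control and 204 and 210 in the labelled *Rasa1*-KO group. *Cdh1*, which encodes E-cadherin, is also an engineered gene of the ChetPS model, with 1 floxed allele, which limits it as a marker here. *Cdh1* was between 76.7 and 124 FPKM in control, 20.0 and 25.4 in *Nf2*-KO, 29.1 and 35.3 in the labelled *Rasa1*-KO group, and 67.2 and 89.4 in the labelled double-KO group. *Epcam*, an epithelial surface marker, was between 27.7 and 31.7 FPKM in control, 4.43 and 4.89 in *Nf2*-KO, 9.16 and 9.79 in the labelled *Rasa1*-KO group, and 9.96 and 18.6 in the labelled double-KO group. The part of these changes in the results on glycolysis and hypoxia genes was not tested.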

How the data were processed

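The data are 12 RNA-seq libraries of S1 tumorspheres, 3 in each group, grouped by the GEO labels. Per the study's methods and the submitters' processing notes, reads were trimmed with Trimmomatic 0.38, aligned to mm10 with HISAT2 2.1.0 and quantified with StringTie 2.1.3b against the RefSeq annotation. The authors deposited raw read counts per gene. They also deposited FPKM, which are scaled by length and mapped reads and were used here to compare levels between genes and as an alternative, and TPM, which were not tested. A deposited log2 column of the authors' normalized values was not used. Whether counting used the strand is not given in the sources used here.

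Counts were analyzed in R 4.3.3 with edgeR 4.0.16: filterByExpr, TMM normalization and 1 quasi-likelihood fit over the 4 groups, with Benjamini-Hochberg adjustment over 18053 genes and a call at an adjusted p under 0.05. Levels per library are TMM-scaled CPM, and log2 CPM had a prior count of 2. Libraries held 43818139 to 96674463 counts, and this depth with the 3 libraries a group limits the precision. The code was tested on simulated data. Promoter windows and gene positions are from RefSeq tables of GRCm38.p6, in which all 37 genes were found by gene ID. Figures were drawn with matplotlib 3.10.9.

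The 37 genes and the other lists were chosen with earlier results of these data known. Values by library are given for the genes with the largest called changes against control (up to 5 up and 5 down in each comparison) and always for *Slc2a1*, *Hk2*, *Ldha*, *Pdk1*, *Vegfa*, *Bnip3*, *Egln3*, *Car9* and *Hif1a*. The control spread is given for the 6 genes with the widest range, and for genes of the other lists up to 6 that were called. *Hk1*, *Pfkfb3* and others with means or folds only complete the account of the members. Alternatives were RLE size factors, DESeq2 1.42.0, no filter, only the groups compared, the study's calling rule, a stricter threshold, exchanged labels, replicate blocks, each library left out, both outer control libraries left out, and limma 3.58.1 on log2 FPKM, with 1 or 0.1 added to each value. Adding the counts of gene copies was chosen after the data were seen.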

Additional observations from a re-analysis of the deposited data

Results flagged for a closer look

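For 22 of the genes with values by library, the change in the libraries labelled double-KO differed from the sum of the changes in *Nf2*-KO and in those labelled *Rasa1*-KO, by the interaction term of the edgeR fit (adjusted over all genes tested, threshold 0.05). In the libraries labelled *Rasa1*-KO both *Nf2* and *Rasa1* were below control, and in those labelled double-KO only *Rasa1* was. The exchanged labels match these levels, and the values as labelled hold only if the labels are right. These values are given first, and those with the labels exchanged follow for all 22. As labelled, 24.9% of all genes were called lower and 27.4% higher.

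The departure in log2 was negative for 20 of the 22. Many of these genes were picked for large changes against control, and the departure subtracts such changes in *Nf2*-KO and in those labelled *Rasa1*-KO. The pick thus favors negative values for genes that rose and positive ones for genes that fell. In glucose uptake it was -2.13 for *Slc2a1* and -4.28 for *Slc2a3*. In the upper part of glycolysis it was -0.45 for *Hk2*, -1.31 for *Pfkl*, -2.84 for *Aldoa*, -2.69 for *Aldoc* and -1.72 for *Tpi1*. In the lower part it was -1.91 for *Gapdh*, -3.19 for *Pgk1* and -4.42 for *Eno2*. Among the genes for lactate and pyruvate it was -1.80 for *Ldha*, -1.52 for *Slc16a3* and -2.77 for *Pdk1*. Among the hypoxia targets it was -1.81 for *Vegfa*, -3.28 for *Bnip3*, -2.47 for *Car9*, -2.75 for *P4ha2*, -3.41 for *P4ha1*, -2.88 for *Adm* and -1.82 for *Ankrd37*. It was positive for *Pfkfb4* (2.68) and *Ldhb* (2.28).

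With the labels exchanged, 13 of the 22 were still called, with the same sign, among them *Slc2a1* (-1.20), *Eno2* (-1.20), *P4ha2* (-1.83), *Car9* (-2.53) and *Pfkfb4* (0.75). *Slc2a3*, *Aldoa*, *Aldoc*, *Tpi1*, *Pfkl*, *Ldhb*, *Vegfa*, *Adm* and *Ankrd37* were not (adjusted p between 0.1 and 0.96). With 3 libraries a group, no library was tested for lying apart from its group.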

How the results depend on the processing

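The number of the 37 genes called against control kept within 1.5 times its value under RLE size factors, DESeq2, no filter, log2 FPKM and the stricter threshold. In the libraries labelled *Rasa1*-KO against *Nf2*-KO the main count of 1 was 3 with DESeq2, 0 without the filter, 13 with only the groups compared, 0 at an adjusted p under 0.01, 20 with the labels exchanged and 7 with the unnumbered control library and control library 2 both left out. In those labelled double-KO it was 0 against control and 28 against those labelled *Rasa1*-KO with only the groups compared, and 30 against those labelled *Rasa1*-KO and 31 against *Nf2*-KO with both control libraries left out. Against *Nf2*-KO it was 1 with the labels exchanged. The study's rule gave 15 in *Nf2*-KO and 14 in the libraries labelled *Rasa1*-KO against control, 2 in each comparison of those labelled double-KO, and 0 in those labelled *Rasa1*-KO against *Nf2*-KO. Some counts rose and others fell, also where fewer libraries were fitted. The cause was not tested, and for most of these counts no share over all genes is given.

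With each library left out in turn, the counts lay between 33 and 36 in *Nf2*-KO, 32 and 35 in the libraries labelled *Rasa1*-KO and 17 and 35 in those labelled double-KO, all against control. They lay between 14 and 27 for labelled double-KO against labelled *Rasa1*-KO, 0 and 7 for labelled *Rasa1*-KO against *Nf2*-KO, 17 and 27 for labelled double-KO against *Nf2*-KO, and 33 and 36 for the departure from additivity. The highest count in the libraries labelled double-KO against control came without the unnumbered control library.

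Libraries with the same number in their titles did not deviate together throughout (correlation -0.379 for control and labelled double-KO library 1). By the number in the names of the tables, those of control and labelled double-KO did (0.626, 0.313 and 0.444), and other pairs did not throughout. Some control and labelled double-KO libraries with unlike numbers did so too. The correlation was 0.399 for library 2 of both groups, and 0.258 for control library 1 and labelled double-KO library 3. Those of the remaining pairs of these groups were between -0.56 and -0.379. Whether the libraries were made in pairs was not tested. With the replicate block by title number the counts against control were 35, 34 and 22, and with the block by table name 35, 34 and 31. For labelled *Rasa1*-KO against *Nf2*-KO the blocks gave 0 and 3.

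Exchanging the labels turned signs by construction. For labelled double-KO against labelled *Rasa1*-KO the log2 values became 0.46 (*Slc2a1*), 2.18 (*Slc2a3*), 0.61 (*Gpi1*), 0.55 (*Pfkm*), -1.08 (*Pfkfb3*), -0.97 (*Pfkfb4*), 0.99 (*Aldoa*), 1.09 (*Pgk1*), 1.61 (*Eno2*), -0.8 (*Ldhb*), 0.85 (*Pdk1*), 0.51 (*Pdk3*), 0.66 (*Vegfa*), 0.98 (*Bnip3*), 0.43 (*Bnip3l*), 1.15 (*P4ha1*), 0.46 (*P4ha2*) and 0.61 (*Ndrg1*). For labelled *Rasa1*-KO against *Nf2*-KO they became -1.92 (*Slc2a3*), -0.57 (*Gpi1*), -0.47 (*Pfkm*), 0.80 (*Pfkfb3*), -0.89 (*Aldoa*), -0.99 (*Pgk1*) and -0.33 (*Bnip3l*). For labelled double-KO against *Nf2*-KO they became 0.26 (*Slc2a3*), 0.039 (*Gpi1*), 0.088 (*Pfkm*), -0.29 (*Pfkfb3*), 0.093 (*Aldoa*), 0.10 (*Pgk1*) and 0.10 (*Bnip3l*). The departure from additivity became 0.083 (*Slc2a3*) and -1.42 (*Pfkfb3*).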
